A study of Mus musculus with 6 samples.

Results

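The expression of 10 gut chemokine genes was followed in irradiated mouse intestine: Cxcl9, Cxcl10 and Ccl5, which interferon induces, Ccl2 and Ccl20, which inflammatory signals induce, and the homeostatic Ccl25, Ccl28, Cxcl12, Cxcl13 and Cx3cl1. They were chosen by name, from probes of an Illumina MouseWG-6 v2 BeadChip whose current or older gene symbol is one of the 10, and 19 of the 45281 probes on the array matched. Another 3 probes matched only through C7, an old alias of Cxcl10, and were left out because their gene ID is that of the complement gene C7. The array names 19057 genes through probes with 1 symbol, and all 10 chemokines were among them. The brightest probe of a gene, that with the highest mean signal over the 6 arrays, stands for the gene, and its other probes are given beside it.

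The samples are 3 intestines of mice given free ubiquitin (free Ub), a recombinant protein injected into the peritoneum, and 3 of mice given PBS, its vehicle. By the labels all 6 were male C57 mice of 4 weeks (the methods of the study name C57BL/6J) that received 7 Gy to the whole body, then free Ub or PBS, with tissue taken at 3.5 days. The methods and a legend of the study give another age, another time and an injection before the radiation, and these differences between sources could not be settled. The labels do not say which stretch of the intestine was taken or whether tissue was pooled, and no unirradiated intestine was among the arrays, so each comparison is of free Ub with PBS after radiation.

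Chemokines are small secreted proteins that draw leukocytes along a gradient by binding G protein-coupled receptors. Cxcl9 and Cxcl10 call effector T and NK cells through Cxcr3 where interferon gamma is made, whereas homeostatic chemokines place lymphocytes in the resting gut: Ccl25 from small intestinal epithelium recruits T cells and plasma cells through Ccr9, Ccl28 recruits IgA plasma cells through Ccr10, and Cxcl13 builds B cell follicles through Cxcr5. Cxcl12, made by stromal cells, binds Cxcr4, a receptor that extracellular ubiquitin has also been described to bind.

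None of the 10 chemokines passed a test threshold between free Ub and PBS intestines. Of the 10, 0 were lower and 0 were higher with free Ub at an unadjusted p under 0.05 in limma, and 0 passed an adjusted p under 0.05 (Benjamini-Hochberg over all probes, as for every adjusted p here). Over all genes, 3.4% were lower and 2.34% were higher at the unadjusted threshold, and 0.053% of probes passed the adjusted one. No chemokine reached the study's threshold, a fold change above 2 with an unadjusted p under 0.05. With free Ub, 7 means were lower and 3 were higher, with a median difference of -0.17 on the log2 scale, beside -0.02 over all genes. The groups of 1 of the 8 chemokines that were above the floor on all arrays, Ccl28, did not overlap, beside 10.7% of all genes above the floor.

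Values are log2 signals on the scale the authors deposited, which has a floor near 0 shared by 32.2% to 33.7% of the probes of an array, and a probe within 0.01 of its array's lowest value is called at the floor. Levels of different genes come from different probes and are not compared. All arrays had a median of 2.55, their upper quartiles averaged 5.32, and they correlated with each other at r of 0.926 to 0.945. The intestinal label held in the epithelial markers, all 8 of which were above the floor on every array (a log2 median of 9.65 to 9.88 with free Ub and 9.83 to 10.18 with PBS). Of the 6 enterocyte markers 4 were above the floor on every array, while Fabp1 was at the floor on 4 arrays and Fabp2 on 3. Of the 3 small intestine region markers Gata4 was measured, while Fabp6 and Slc10a2 were at the floor on all 6 arrays. A reading at the floor was not taken to show that a gene is not expressed. Among the marker lists, that of pancreatic acinar cells differed most between samples of 1 group: the median of the 4 measured of 5 was 13.57, 11.76 and 6.26 in free Ub replicates 1, 2 and 3 and 11.52, 9.49 and 13.74 in PBS replicates 1, 2 and 3. None of the 4 was at the floor, and the log2 of their summed signal ran from 9.90 to 15.61 with free Ub and from 12.78 to 15.78 with PBS. The part of this pancreatic signal in the chemokine values was not tested.

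**Figure D1:**
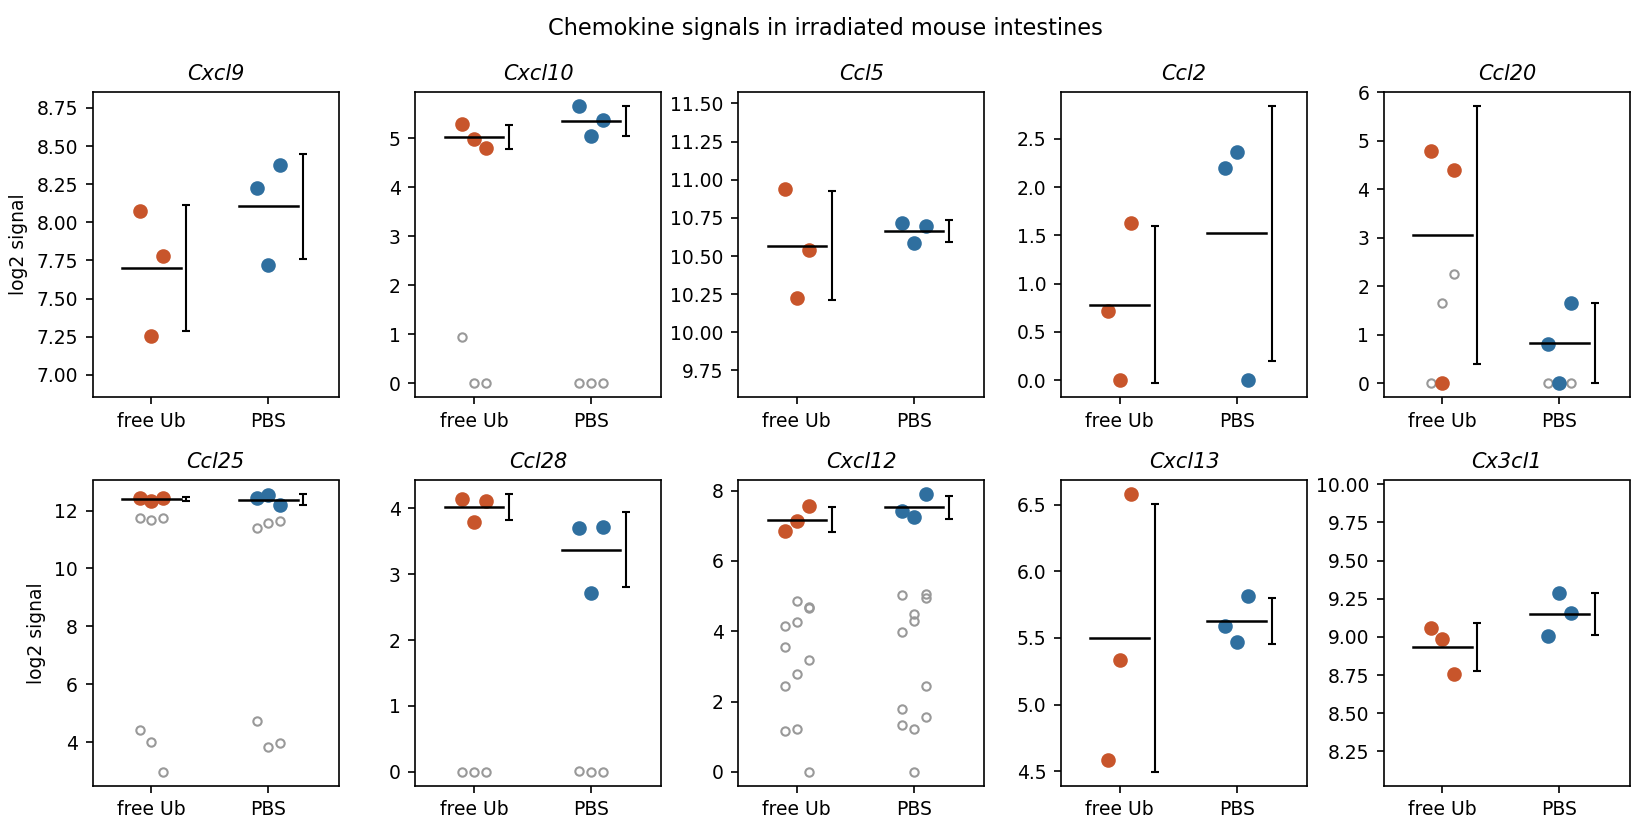
Log2 signal (vertical axis, a scale of its own for each gene) of the 10 chemokines in 3 free Ub (left, orange) and 3 PBS (right, blue) intestines, points ordered by replicate number from left to right. Filled points are the brightest probe with its mean and SD, hollow grey points are other probes. Only Ccl28 has brightest-probe groups that do not overlap among the 8 genes above the floor on all arrays, and Cxcl13 spans 4.59 to 6.58 with free Ub.

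The promoters of 3 inducible chemokines are shown because Cxcl9 and Cxcl10 share an inducer, interferon gamma, while their windows differ in the letters searched, and because Ccl20 has an NF-κB match. Each is the 250 bases before the start annotated by RefSeq (GRCm38.p6), 5′ to 3′ on the strand of the gene: Cxcl9 is at chr5:92328080-92328329 on the minus strand, Cxcl10 at chr5:92348890-92349139 on the minus strand and Ccl20 at chr1:83116516-83116765 on the plus strand. Capitals mark matches to the core of the interferon-stimulated response element (ISRE, searched as GAAANNGAAA) and to the NF-κB consensus.
Cxcl9: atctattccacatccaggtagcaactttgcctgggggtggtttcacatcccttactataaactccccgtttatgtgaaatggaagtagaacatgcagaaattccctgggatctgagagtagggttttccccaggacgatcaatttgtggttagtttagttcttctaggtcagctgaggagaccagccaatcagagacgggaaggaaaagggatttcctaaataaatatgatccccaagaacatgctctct
Cxcl10: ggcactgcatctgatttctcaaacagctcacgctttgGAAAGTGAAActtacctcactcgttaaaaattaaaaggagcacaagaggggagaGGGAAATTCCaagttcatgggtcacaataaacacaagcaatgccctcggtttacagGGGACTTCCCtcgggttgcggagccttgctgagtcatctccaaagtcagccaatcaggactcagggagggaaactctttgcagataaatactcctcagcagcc
Ccl20: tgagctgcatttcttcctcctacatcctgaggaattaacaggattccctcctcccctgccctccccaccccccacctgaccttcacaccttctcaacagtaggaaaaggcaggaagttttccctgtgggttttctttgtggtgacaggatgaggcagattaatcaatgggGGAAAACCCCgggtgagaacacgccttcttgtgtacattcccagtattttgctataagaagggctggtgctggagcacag
The Cxcl10 window held 1 ISRE core, GAAAGTGAAA, at 213 to 204 bases before the start, and 2 NF-κB matches, at 159 to 150 and at 103 to 94. The Ccl20 window held 1 NF-κB match, read on the opposite strand, at 80 to 71. The Cxcl9 window had no match to either motif or to the gamma-activated site (GAS, searched as TTCNNNGAA) and had a TATAAA at 195 to 190. Both strands were searched for every motif, and no capitals overlap. Of the 32851 mouse promoters of the same length, 2.98% held the ISRE core, 7.02% the GAS, 3.9% the NF-κB consensus and 12.37% TATAAA. Promoters were matched for 8 of the 10 chemokines (9 starts, Ccl25 having 2), and the windows of Ccl25, Ccl28, Cxcl12, Cxcl13 and Cx3cl1 had no ISRE, GAS or NF-κB match. TATAAA also matched in the windows of Cxcl13 (46 to 41), of the second Ccl25 start (16 to 11) and of Cx3cl1 (6 to 1). A match describes the letters and is not a measured binding site. Other forms of interferon response element were not searched, so a window without a match, such as that of Cxcl9, may still hold one. Cxcl9 and Cxcl10 lie on chromosome 5 with Art3 as the gene annotated between them.

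Of the interferon-induced chemokines, Cxcl9, which macrophages and other cells make in answer to interferon gamma, read 8.08, 7.26 and 7.78 in free Ub replicates 1 to 3, against 8.23, 7.72 and 8.37 in PBS replicates 1 to 3. Its lowest value was in free Ub replicate 2, and the groups overlapped, since free Ub replicates 1 and 3 exceeded PBS replicate 2. The means were 7.70 ± 0.41 with free Ub and 8.11 ± 0.34 with PBS (SD, n = 3 each), a difference of -0.40 (95% interval -1.18 to 0.37) and a limma adjusted p of 0.872. The exact permutation test gave p = 0.3 (two-sided), where 3 against 3 cannot give less than 0.1. The interval reaches from 2.26-fold lower to 1.30-fold higher, so neither an unchanged Cxcl9 nor a fall beyond 2-fold lies outside it. Its samples were more scattered than usual: among the 2090 probes with a mean within 0.5 of its own, 94.2% had a smaller SD with free Ub and 84.3% had one with PBS.

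Cxcl10, a ligand of the same receptor, read 5.29, 4.98 and 4.81 with free Ub, against 5.64, 5.04 and 5.38 with PBS. The 2 lowest values were free Ub samples, but the highest free Ub value exceeded PBS replicate 2. The means were 5.03 ± 0.24 with free Ub and 5.35 ± 0.30 with PBS (SD, n = 3 each), a difference of -0.33 (-0.89 to 0.24), with a limma adjusted p of 0.872 and an exact permutation p of 0.2. Its other probe gave no second reading, as it read 0.93 in free Ub replicate 1 and the floor everywhere else.

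Ccl5, which T and NK cells release and whose receptors include Ccr1 and Ccr3, read 10.94, 10.22 and 10.54 with free Ub, against 10.71, 10.58 and 10.70 with PBS. Both its highest and its lowest value were free Ub samples, and the PBS samples lay within 0.13 of each other, inside the free Ub range of 0.72. The means were 10.57 ± 0.36 with free Ub and 10.67 ± 0.07 with PBS (SD, n = 3 each), a difference of -0.10 (-0.63 to 0.43), with a limma adjusted p of 0.979 and an exact permutation p of 0.7. Without free Ub replicate 2 the difference had the other sign, 0.07.

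The inflammatory chemokines were near the floor. Ccl2, which recruits monocytes through Ccr2, read 0.72, the floor and 1.63 with free Ub, against 2.20, 2.36 and the floor with PBS. Ccl20, which epithelium over lymphoid follicles makes and which draws Ccr6+ lymphocytes and dendritic cells, read 4.79, the floor and 4.39 with free Ub, against 0.81, the floor and 1.65 with PBS. Thus 2 free Ub samples stood above all PBS samples for Ccl20 and the remaining one was as low as any. The Ccl20 means were 3.06 ± 2.66 with free Ub and 0.82 ± 0.82 with PBS (SD, n = 3 each), a difference of 2.24 (-1.76 to 6.24), with a limma adjusted p of 0.872 and an exact permutation p of 0.3.

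A second Ccl20 probe read the floor, 1.66 and 2.25 with free Ub, against the floor in all 3 PBS samples. Both probes had a higher mean with free Ub, but they disagree on which free Ub sample was at the floor, replicate 2 by the brighter probe and replicate 1 by the other. The second probe differed by 1.30 (-0.38 to 2.98), with a limma adjusted p of 0.872. Without free Ub replicate 2 the brighter probe differed by 3.77 with an adjusted p of 0.361, and Ccl20 was then the 1 chemokine past the unadjusted threshold. For Ccl2 the difference was -0.74 (-2.97 to 1.49), with an adjusted p of 0.913 and an exact permutation p of 0.4, and it ran from -1.50 without PBS replicate 3 to -0.32 without PBS replicate 2. Neither gene's interval leaves out a fold of 2 in either direction, so a difference of that size was not measurable at these signals.

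**Figure D2:**
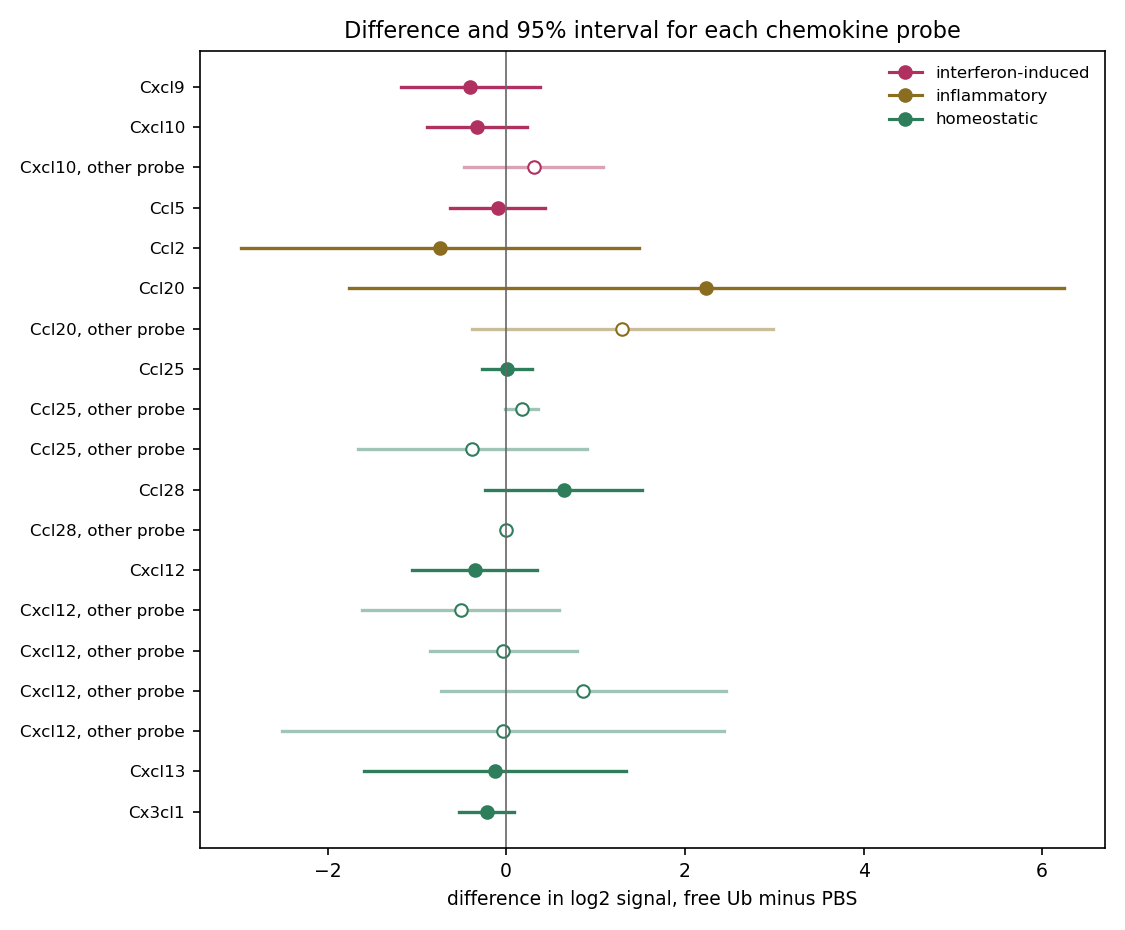
Difference in log2 signal, free Ub minus PBS (horizontal axis), with its 95% interval from limma for the 19 chemokine probes, coloured by class. Filled points are brightest probes and hollow points are other probes. Every interval crosses 0, and those of Ccl25 (-0.27 to 0.29) and Cx3cl1 (-0.52 to 0.09) are the narrowest among the brightest probes.

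Of the homeostatic chemokines, Ccl25 was the most tightly measured. Its brightest probe read 12.43, 12.32 and 12.42 with free Ub, against 12.44, 12.52 and 12.18 with PBS. The PBS samples spanned 0.34 and held both the highest and the lowest value. The means were 12.39 ± 0.06 with free Ub and 12.38 ± 0.18 with PBS (SD, n = 3 each), a difference of 0.01 (-0.27 to 0.29), with a limma adjusted p of 0.979 and an exact permutation p of 1. The interval leaves out a fold change above 1.22 in either direction, the narrowest bound among the 10.

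A second, bright Ccl25 probe read 11.73, 11.66 and 11.73 with free Ub, against 11.41, 11.55 and 11.63 with PBS. Here every free Ub sample was above every PBS sample, though by little: the difference was 0.17 (-0.01 to 0.36), with a limma adjusted p of 0.872 and an exact permutation p of 0.1, the smallest the design allows. The dimmest of its 3 probes read 4.44, 4.00 and 2.99 with free Ub, against 4.75, 3.83 and 4.00 with PBS, and differed by -0.38 with an adjusted p of 0.943. No direction was common to all of them.

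Ccl28, a mucosal epithelial chemokine, read 4.15, 3.79 and 4.11 with free Ub, against 3.70, 2.71 and 3.71 with PBS. All free Ub samples were above all PBS samples, with a gap of under 0.1 between the lowest free Ub and the highest PBS sample, and PBS replicate 2 stood 0.99 below the mean of the 6. The means were 4.02 ± 0.19 with free Ub and 3.38 ± 0.58 with PBS (SD, n = 3 each), a difference of 0.64 (-0.23 to 1.52) or 1.56-fold. The limma adjusted p was 0.872 and the exact permutation p was 0.1, the smallest possible. Without PBS replicate 2 the difference was 0.31, and with values under 4 raised to 4 it was 0.09. The other Ccl28 probe was at the floor on all 6 arrays and neither adds to nor takes from this reading.

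Cxcl12, measured by 5 probes, read 6.85, 7.12 and 7.55 with free Ub, against 7.42, 7.26 and 7.89 with PBS, by the brightest. The 2 lowest values were free Ub samples, while free Ub replicate 3 exceeded 2 of the PBS samples. The means were 7.17 ± 0.35 with free Ub and 7.53 ± 0.33 with PBS (SD, n = 3 each), a difference of -0.35 (-1.05 to 0.35), with a limma adjusted p of 0.872 and an exact permutation p of 0.3. The other 4 probes were dimmer and differed by -0.51, -0.03, 0.86 and -0.04, all with overlapping groups. The one at 0.86 read 1.16, 2.77 and 3.19 with free Ub, against 1.77, 1.22 and 1.55 with PBS, so its lowest value too was a free Ub sample. None of the 5 probes reached an unadjusted p under 0.05.

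Cxcl13, which follicular stromal cells make, read 4.59, 5.34 and 6.58 with free Ub, against 5.59, 5.47 and 5.81 with PBS. The free Ub samples held both extremes and spanned 1.99, while the PBS samples spanned 0.34. The means were 5.50 ± 1.00 with free Ub and 5.63 ± 0.17 with PBS (SD, n = 3 each), a difference of -0.12 (-1.59 to 1.34), with a limma adjusted p of 0.979 and an exact permutation p of 0.8. Of the 2564 probes with a mean within 0.5 of that of Cxcl13, 99.3% had a smaller SD among free Ub samples and 25.1% had a smaller one among PBS samples. Without free Ub replicate 1 the difference was 0.33 in place of -0.12.

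Cx3cl1, a membrane-bound chemokine that is shed and that holds Cx3cr1+ mononuclear phagocytes, read 9.06, 8.98 and 8.76 with free Ub, against 9.01, 9.29 and 9.16 with PBS. The lowest 2 values were free Ub samples, but free Ub replicate 1 was above PBS replicate 1. The means were 8.93 ± 0.16 with free Ub and 9.15 ± 0.14 with PBS (SD, n = 3 each), a difference of -0.22 (-0.52 to 0.09), with a limma adjusted p of 0.872 and an exact permutation p of 0.2. The interval leaves out a fall beyond 1.44-fold and a rise beyond 1.07-fold.

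The interferon-induced and the homeostatic chemokines were compared through the mean log2 signal of each class on each array. The interferon-induced mean was 8.10, 7.49 and 7.71 with free Ub and 8.20, 7.78 and 8.15 with PBS, a difference of -0.28 between group means. The homeostatic mean was 7.41, 7.51 and 7.88 with free Ub and 7.63, 7.45 and 7.75 with PBS, a difference of -0.01. That difference averaged 3 lower and 2 higher genes, from -0.35 (Cxcl12) to 0.64 (the dim Ccl28), with a median of -0.12. The first class minus the second was 0.69, -0.02 and -0.18 with free Ub and 0.56, 0.33 and 0.40 with PBS. Free Ub replicate 1 had the highest of these values and replicates 2 and 3 the lowest, so the groups overlapped. The means were 0.16 ± 0.46 with free Ub and 0.43 ± 0.12 with PBS (SD, n = 3 each), and their difference of -0.27 was smaller than the pooled SD of 0.34. No p is given for these class means, since their genes were chosen with results of these data known.

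**Figure D3:**
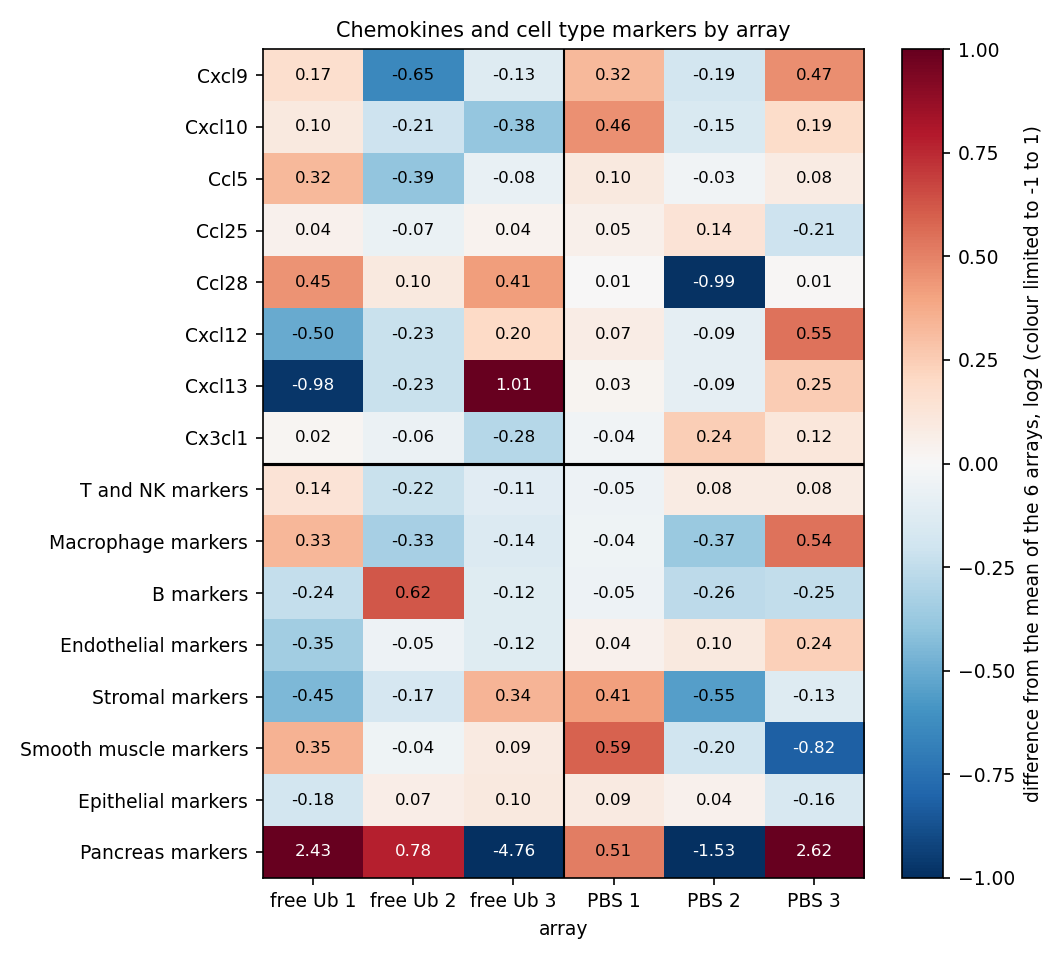
Difference of each array (columns) from the mean of the 6 arrays on the log2 scale (colour and printed value), for the 8 chemokines above the floor on all arrays (upper rows) and for the median of each marker list (lower rows). Free Ub replicate 2 is lowest for Cxcl9 (-0.65) and Ccl5 (-0.39), and Cxcl13 runs from -0.98 to 1.01 within the free Ub group.

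Signals of the cells that make these chemokines also varied between the arrays. In bulk tissue, fewer cells of a type and less RNA per cell cannot be told apart. Beside Cxcl9 and Cxcl10, the macrophage markers (8 of 9 measured, all above the floor) had a log2 summed signal of 10.82, 10.02 and 10.27 with free Ub and 10.38, 10.07 and 11.07 with PBS, and 0 of the 8 passed the unadjusted threshold. Free Ub replicate 2, the lowest sample for Cxcl9, was also the lowest for this sum, and PBS replicate 3 was the highest for both. Cxcl10 differed from the sum in this, being lowest in free Ub replicate 3 and highest in PBS replicate 1. Beside Ccl5, the T and NK cell markers (11 of 12 measured) summed to 11.37, 11.36 and 11.14 with free Ub and 11.54, 11.53 and 11.55 with PBS. The groups did not overlap in this sum, in which the strong Cd8b1 signal weighs most. By its brightest probe Cd8b1 differed by -0.29 with separate groups, while its dimmer probes differed by -0.24 and -0.01 with overlapping groups. The groups overlapped in the median log2 value of the list, 7.40, 6.74 and 7.07 with free Ub and 7.12, 7.21 and 7.19 with PBS. Of the 8 markers above the floor on all arrays 3 had separate groups, beside the 10.7% of all genes above the floor. Of the 11, 8 had a lower mean with free Ub, with a median of -0.23, and Prf1, the perforin of cytotoxic cells, was the 1 past the unadjusted threshold (-0.64, adjusted p = 0.763), beside 3.4% of all genes lower. A dimmer Prf1 probe, at the floor on 1 array, went the other way with overlapping groups (1.10, limma adjusted p = 0.872). Cd8a, Gzmb and Klrk1 were at the floor on 2, 3 and 3 arrays. The part of either cell type in the chemokine values was not tested.

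For Cxcl12, Cxcl13 and Cx3cl1 the stromal and endothelial markers are the matching lists. The 7 stromal markers summed to 10.31, 10.56 and 11.20 with free Ub and 11.09, 10.38 and 10.91 with PBS, with 5 lower means, 2 higher ones and none past the unadjusted threshold. The order of the free Ub samples was the same for this sum as for Cxcl12 and Cxcl13, lowest in replicate 1 and highest in replicate 3. Among PBS samples the order differed, since the stromal sum was highest in replicate 1 and both chemokines were highest in replicate 3. The 8 endothelial markers summed to 8.97, 9.26 and 9.22 with free Ub and 9.39, 9.43 and 9.65 with PBS, groups that did not overlap. Of these 8, 6 means were lower and 2 higher (Tek by 0.34 and Cdh5 by 0.04) with free Ub, with a median of -0.19. Eng (-0.56, limma adjusted p = 0.726) and Robo4 (-0.46, limma adjusted p = 0.860) were lower at an unadjusted p under 0.05. That is 2 of 8 beside 3.4% of all genes, and the groups of 4 of the 8 were separate beside 10.7%. The list was chosen with earlier results of these data known, so these shares are only a description. All markers of both lists were above the floor on every array, and their part in the chemokine values was not tested.

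B cells, which Cxcl13 attracts, had weak markers. Of the 6 of 8 measured, only Cd79b was above the floor on every array, and Pax5 was at the floor on 5. With free Ub 4 of these markers had a higher mean and 2 a lower one, and 0 passed the unadjusted threshold. Their log2 summed signal was 6.06, 6.31 and 5.80 with free Ub and 6.17, 5.74 and 5.68 with PBS. The highest B marker sum was in free Ub replicate 2, not in replicate 3, where Cxcl13 was highest.

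By likeness over the 6 arrays to the mean profile of Cxcl9, Cxcl10 and Ccl5, the nearest of 6135 genes with a mean above 6 was Fcgr4, an activating IgG receptor of monocytes and macrophages (Pearson r = 0.994). Fcgr4 read 8.54, 7.98 and 8.21 with free Ub, against 8.66, 8.19 and 8.58 with PBS. It was followed by Tmem42 (0.983), Emp3 (0.982), 6430548M08Rik (0.980) and 2310009B15Rik (0.973). These are the highest r of many genes over 6 points that share normalization, and they are given as a description.

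Most of the receptors were near the floor. Of 11 measured receptors of the 10 chemokines, 7 means were higher and 4 lower with free Ub, with a median of 0.17, and 0 passed the unadjusted threshold. Only Cxcr3, Ccr6, Cxcr5 and Cx3cr1 were above the floor on all 6 arrays. Cxcr3, the receptor of Cxcl9 and Cxcl10 on effector T cells, read 4.04, 2.86 and 3.94 with free Ub, against 1.97, 1.64 and 3.87 with PBS. Its mean was higher with free Ub where those of both ligands were lower, but PBS replicate 3 lay close to the higher free Ub samples and the groups overlapped (difference 1.12, limma adjusted p = 0.872).

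Cxcr5, the B cell receptor of Cxcl13, read 4.25, 3.95 and 3.77 with free Ub, against 3.65, 3.90 and 3.72 with PBS, and its groups overlapped (0.24, limma adjusted p = 0.872). Cx3cr1 of mononuclear phagocytes read 5.82, 5.14 and 5.61 with free Ub, against 5.40, 5.44 and 6.38 with PBS. Ccr6 of Th17 cells and B cells read 2.85, 3.26 and 3.44 with free Ub, against 4.07, 3.91 and 2.73 with PBS. Like their ligands, both Cx3cr1 (-0.21) and Ccr6 (-0.38) had overlapping groups.

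Cxcr4, which both Cxcl12 and extracellular ubiquitin bind, read 1.56, 1.15 and the floor with free Ub, against the floor, the floor and 2.63 with PBS. A change of Cxcr4 RNA could not be measured at these signals. Ccr9, the receptor of Ccl25, read 0.10, 2.84 and the floor with free Ub, against 3.17, 1.82 and 2.07 with PBS (-1.38, limma adjusted p = 0.872). Ccr2 read 2.63, 2.93 and the floor with free Ub, against 1.56, 1.04 and 2.47 with PBS, a difference of 0.17 that is small beside its spread. Ccr10, Ackr3, Ccr1 and Ccr3 were at the floor on 4 or 5 of the 6 arrays.

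**Figure D4:**
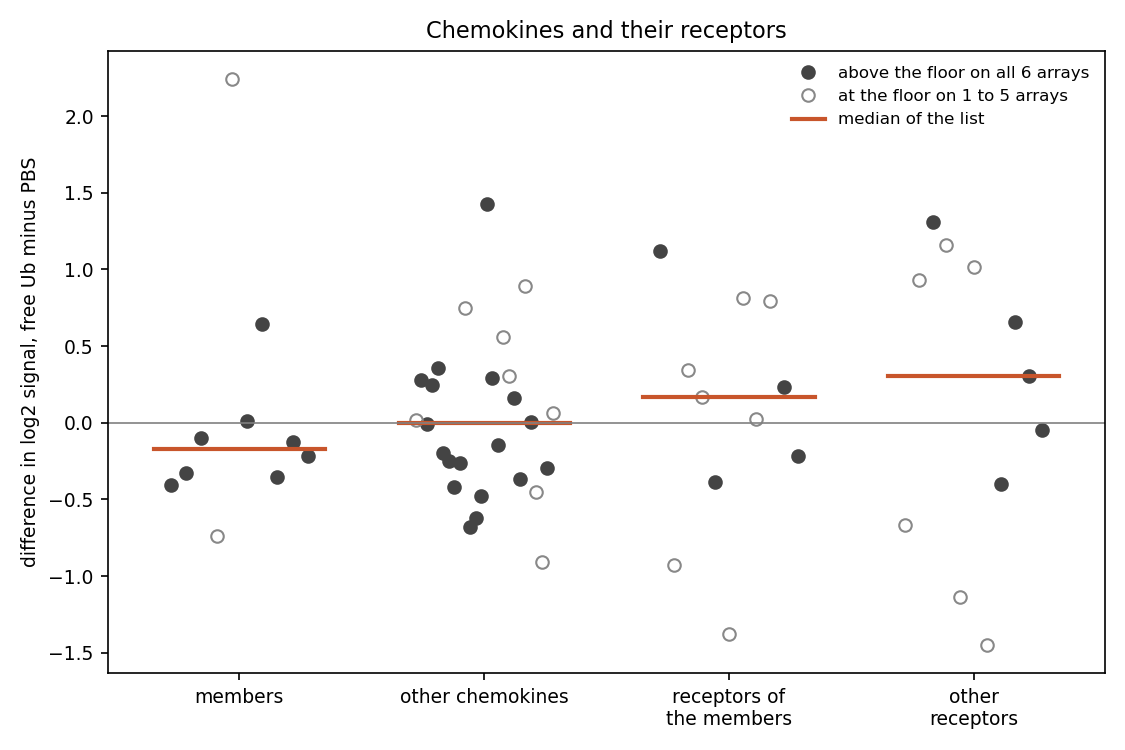
Difference in log2 signal, free Ub minus PBS (vertical axis), of the 10 chemokines, of other chemokines, of the receptors of the 10 and of other chemokine receptors, 1 point a gene by its brightest probe, without genes at the floor on all 6 arrays. Hollow points were at the floor on 1 to 5 arrays, and lines mark medians of -0.17, 0, 0.17 and 0.31, beside -0.02 over all genes.

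Among the remaining chemokines of the mouse, 28 of 31 were measured, Ccl22 and Cxcl3 were at the floor on all 6 arrays, and 13 means were higher and 13 lower with free Ub (median 0). None passed the unadjusted threshold and no groups were separate. Of 11 other receptors 6 means were higher and 5 lower, and 1 was higher at an unadjusted p under 0.05, beside 2.34% of all genes. That was Ccr8, a receptor of regulatory and Th2 cells, which is dimmer than the limit for named genes and is named after its values were seen: 3.62, 2.17 and 3.13 with free Ub, against 1.44, 1.94 and 1.61 with PBS (1.31, limma adjusted p = 0.872). Of the 5 above the floor on all arrays, Ccr8 alone had separate groups, beside 10.7% of all such genes. Ccr4, dimmer still and likewise named after its values were seen, also had separate groups. It read the floor in all free Ub samples, against 1.14, 0.65 and 0.20 with PBS (-0.67, limma adjusted p = 0.872).

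Of 26 genes that induce these chemokines or carry the signal to them, 24 were measured, with 9 higher and 13 lower means, and none passed after adjustment. By the unadjusted threshold, 3 were lower (Ifng, Irf7 and Tnfaip3) and 1 was higher (Nfkbia), beside 3.4% and 2.34% of all genes. The groups of these 4 were separate, out of 19 above the floor on all arrays, beside 10.7% of all such genes. The interferon regulatory factor Irf7 read 7.59, 7.20 and 7.18 with free Ub, against 8.04, 8.10 and 7.86 with PBS (-0.67, limma adjusted p = 0.571). Ifng, an inducer of Cxcl9 and Cxcl10, read 1.95, 1.90 and 2.13 with free Ub, against 2.76, 3.40 and 2.91 with PBS (-1.03, limma adjusted p = 0.493). Its signals are below the limit for named genes, and its free Ub values are below the array median of 2.55. It is named with its values known, because interferon gamma induces both chemokines. A dimmer Ifng probe gave no second reading, as it read 0.35 in PBS replicate 1 and the floor everywhere else. The groups of the brightest Ifng probe did not overlap, while those of Cxcl9, Cxcl10 and Ccl5 did. Irf1, which acts on the same promoters, differed by 0.10 (adjusted p = 0.979). The interferon gamma receptor chain Ifngr2 differed by -0.22 by its brightest probe, while its 2 dimmer probes were higher at the unadjusted threshold (0.54 and 0.55, limma adjusted p of 0.738 and 0.383).

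In the NF-κB branch, which induces Ccl2 and Ccl20, its inhibitor Nfkbia read 8.87, 9.06 and 8.92 with free Ub, against 8.55, 8.65 and 8.68 with PBS (0.32, limma adjusted p = 0.582). A dimmer Nfkbia probe differed by 0.02 with overlapping groups (limma adjusted p = 0.987). The inhibitor Tnfaip3 read 5.96, 5.89 and 5.85 with free Ub, against 6.06, 6.28 and 6.08 with PBS (-0.24, limma adjusted p = 0.861). By their brightest probes both inhibitors were past the unadjusted threshold, in opposite directions. Of the proteases that process chemokines, Dpp4, which trims Cxcl10, Ccl5 and Cxcl12, differed by 0.02 and Adam17, which sheds Cx3cl1, by -0.17, and 0 of the 4 listed passed the unadjusted threshold by their brightest probes. A dimmer Adam17 probe went the other way, at 5.04, 5.31 and 5.13 with free Ub, against 4.36, 4.89 and 4.60 with PBS. It passed the unadjusted threshold (0.55, limma adjusted p = 0.814), so the direction of Adam17 depends on the probe.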

How the data were processed

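RNA of 6 intestines (3 free Ub, 3 PBS) was measured on 1 array each. Cubic-spline normalized signals came from GenomeStudio as run by the authors (version not given in the sources used here). The deposited values were read as log2 from their range, with array maxima that averaged 14.49, as no source states the transform. The background handling behind the floor is not described. No detection p-values were used. The number of arrays limits the precision, since read depth has no counterpart here.

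Of the 45281 probes, 34885 have 1 gene symbol in the platform annotation, 18 have several and 10378 have none. Free Ub was compared with PBS probe by probe by the moderated, two-sided test of limma 3.58.1 under R 4.3.3, without covariates and with Benjamini-Hochberg adjustment over all probes, after the procedure was tested on simulated data. The exact permutation test used the 20 regroupings of 3 against 3. No further normalization was applied. The labels do not say that the samples are separate mice of separate litters or cages, so p-values measure only the spread between these samples.

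Named genes are the 10 chemokines with all probes, their receptors, genes of other lists with an unadjusted p under 0.05 and a higher group mean above 4 log2, and the 5 genes most like the mean profile of the interferon-induced class. The members and lists were chosen with earlier results of these data known. The share of a list, set beside that of all genes, is therefore a description and not a test. The alternatives were other normalizations, floors of 4 and 6 log2, a filter on dim probes, a replicate block, other variance models, the methods' t-tests, the mean of all probes and leaving out each sample.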

Additional observations from a re-analysis of the deposited data

How the results depend on the processing

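Each chemokine difference was recomputed under 17 alternatives (16 for Ccl2 and Ccl20, whose probes lie under the filter on dim probes), and 0 gave an adjusted p under 0.05. Cxcl9 (-0.60 to -0.18), Cxcl10 (-0.48 to 0), Cxcl12 (-0.54 to -0.01), Cx3cl1 (-0.29 to -0.13), Ccl28 (0 to 0.81) and Ccl20 (0 to 3.77) turned in none. The 0 ends come from the floor of 6 log2, which makes dim genes constant. The sign turned for Cxcl13 (0.19 with that floor), for Ccl2 (0.01 with array weights) and for Ccl25 (-0.06 with the mean of all probes). Leaving out 1 sample at a time gave -0.09 to 0.08 for Ccl25, -0.66 to 0.33 for Cxcl13, -0.28 to 0.07 for Ccl5, -1.50 to -0.32 for Ccl2 and 0.31 (without PBS replicate 2) to 0.81 for Ccl28. It gave 0 to 1 chemokines higher at an unadjusted p under 0.05, the 1 being Ccl20 without free Ub replicate 2, and 0 lower. The interferon-induced minus homeostatic difference of -0.27 ran from -0.53 without free Ub replicate 1 to -0.09 with the floor of 6 log2. The unpaired and paired t-tests of the methods also gave 0 lower and 0 higher at an unadjusted p under 0.05. The replicate block in limma gave 0 lower and 0 higher (Cxcl9 -0.40, adjusted p = 0.834). It brought some chemokines close to the unadjusted threshold. The limma p went from 0.232 to 0.0568 for Cxcl9, from 0.115 to 0.0598 for Ccl28 and from 0.245 to 0.0714 for Cxcl12. Same-numbered samples did not deviate together (r of -0.09 to 0.02, and 1 of 6 samples was best matched by its own number), so the numbers were not taken as pairs. Signals near the floor limit what can be said of Ccl2, Ccl20 and most receptors.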
